A study of Mus musculus with 12 samples.

Results

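The RNA recovered with an antibody against RBM25 was set against the RNA recovered with non-specific IgG in control organoids of the mouse inner ear. The members are 4 of the 12 deposited lists of sites on mRNAs, namely the lists labelled Control1.IP, Control2.IP, Control1.IgG and Control2.IgG, called control IP 1, control IP 2, control IgG 1 and control IgG 2 here. The study took cochlear epithelium from mice at postnatal day 1 to 2 and grew it in Matrigel for 8 to 10 days with 3.5 µM CHIR99021 (a GSK3 inhibitor that activates Wnt signalling) and EGF, bFGF and IGF at 50 ng/ml each. Organoids were then differentiated for 7 to 8 days with 3 µM CHIR99021 and 5 µM LY411575 (a gamma-secretase inhibitor that blocks Notch cleavage) and kept for 9 to 10 days in EGF and bFGF at 10 ng/ml each. All 4 lists come from organoids labelled wild type, which the treatment protocol describes as having received a control lentivirus and the sample label as untreated. The antibody is therefore the labelled difference between IP and IgG, with n = 2 lists each. The labels do not say whether the numbered organoid sets came from separate animals, so the p-values below measure only the spread between these lists, which may be technical.

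RBM25 is a nuclear RNA-binding protein of the splicing machinery, with an RNA recognition motif, a long stretch rich in arginine and glutamate, and a PWI domain. It is known to bind exonic enhancer sequence in the pre-mRNA of the apoptosis regulator Bcl2l1 and to help the U1 snRNP, the particle that recognises the start of an intron, to use an alternative splice site there. In RNA immunoprecipitation the antibody is coupled to beads, the co-purified RNA is sequenced, and stretches with more reads than a background model are listed as sites. IgG beads recover RNA that sticks without specific recognition, so a stretch in both kinds of list was recovered with and without the specific antibody.

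Sites that shared 1 bp or more were merged, which turned the 2059 sites of the 4 lists into 915 regions on 649 genes. Regions in both IP lists and in neither IgG list, called IP-only here, numbered 364 (39.8% of all regions) on 274 genes (42.2% of all genes). Regions in all 4 lists, called common here, numbered 177 (19.3%) on 137 genes (21.1%). Regions in both IgG lists and neither IP list, called IgG-only, numbered 173 (18.9%) on 129 genes (19.9%). These shares of all regions and of all genes are the background against which the groups of genes are read below. The other 201 regions had irregular combinations, among them 63 in control IgG 1 alone, 62 in control IgG 2 alone, 23 in control IP 1 alone and 15 in control IP 2 alone. A region never held more than 1 site of the same list.

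**Figure D1:**
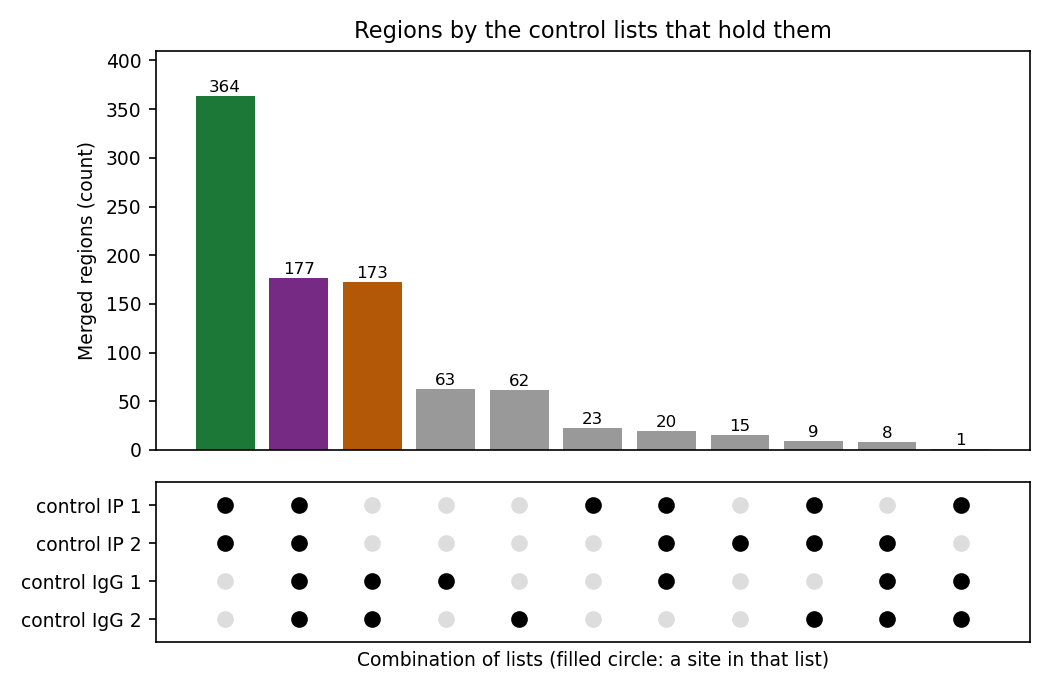
Number of merged regions (vertical axis, count) for each combination of the 4 control lists, with filled circles marking the lists that hold a site. The 3 coloured bars are the IP-only (364), common (177) and IgG-only (173) regions, and no other combination exceeds 63 regions.

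A small part of the sites began at the annotated start of a transcript, where the RefSeq promoter table (GRCm38.p6) gives the underlying sequence. They are shown because they fix where on the RNA the site lies, and because they let the SR protein transcripts of the IP-only and common classes be set side by side. In each line the capitals are the first 20 bases of the site read in the direction of transcription, and the lower-case letters are the 10 bases before it. All 7 sites lie in the transcribed part of their gene within 5 bases of the annotated start.
Ccnl2 (IP-only, chr4:155812479-155812508, + strand): cgagcagccgCCCTGACGGGAAGGGCCCGA
Srsf5 (IP-only, chr12:80945494-80945523, + strand): cgtcccttccATTTTGTGCAACGTCCGAGC
Trim28 (IP-only, chr7:13024142-13024171, + strand): cggctctgcaGGACCTGCGCGCTCAAGCAC
Pias1 (IP-only, chr9:62980860-62980889, - strand): tgcgctgacaGACGCAAGATGGCGGACAGT
Srsf7 (common, chr17:80207286-80207315, - strand): cctcttccttGTAGTGCCGCCGGGATTGCA
Chchd1 (common, chr14:20703017-20703046, + strand): agaggtcaagAGGGGTCACGCACGGCGCCG
Hmgb1 (IgG-only, chr5:149051597-149051626, - strand): ggagggcggaGAATCAATCCTGCCCGCGCG

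The site of Ccnl2, which encodes cyclin L2, a cyclin tied to pre-mRNA splicing, began exactly at the annotated start and ran for 273 bp, with folds of 55.0 in control IP 1 and 91.3 in control IP 2. Its false discovery rate was 100% in control IP 1 and 46.4% in control IP 2, and that of the Trim28 site was 100% in both. The fold is the authors' enrichment of a site over the background of their peak caller, and it ranks or describes sites within its own list. The site of Srsf5, a serine/arginine-rich splicing factor, began 5 bases downstream of the start (folds 53.9 and 64.9), while that of its relative Srsf7 began at the start and was in all 4 lists (349 and 1027 in IP, 24.7 and 39.1 in IgG). Counted over genes with an annotated start, 15 of 287 IP-only sites, 7 of 150 common sites and 4 of 137 IgG-only sites began within 50 bp of a start. Of these, 5 IP-only sites (Ccnl2, Ftl1, Pias1, Ptpn21 and Trim28), 3 common sites as listed in the IP lists and 1 IgG-only site (Hmgb1) began exactly on it.

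The IP lists held more, narrower and higher-scoring sites than the IgG lists. The IP lists named 594 and 593 sites with median widths of 115 and 118 bp, and the IgG lists 442 and 430 sites with median widths of 162 and 160 bp. The mean of the medians was 116.5 ± 2.12 bp in IP and 161.0 ± 1.41 bp in IgG (SD, n = 2 each). The IP sites were thus narrower by more than the spread between lists, with a two-sided exact permutation p of 0.333, which is the smallest that 2 lists against 2 can give.

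The authors' score, which is minus 10 times the log10 of the peak caller's p, reached the value of 3100 that most IP sites carry in 78.3% and 79.4% of IP sites, against 8.82% and 9.07% of IgG sites. A false discovery rate of 100% stood beside 14.3% and 13.0% of IP sites and beside 84.2% and 86.7% of IgG sites. The groups did not overlap in either measure (two-sided exact permutation p = 0.333 for both). The genes with a site had median lengths of 27656.5 and 27798 bp in IP and 28602 and 29374 bp in IgG, again without overlap (exact permutation p = 0.333). Along the gene from its start to its end, the median site lay at 67.4% and 67.3% in IP and at 67.2% and 69.0% in IgG, so here the lists of both kinds were interleaved (exact permutation p = 1). The direction of that difference turned with sites of 100 bp or more and without control IgG 2 (1.30 and 0.11 percentage points, IP minus IgG, against −0.76). With a false discovery rate under 100% the difference was −13.6 points (exact permutation p = 0.333).

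Most of an IgG list was shared with the other IgG list, and less than 50% of it with either IP list. Of control IP 1, 34.8% of sites (207 of 594, 95% Clopper-Pearson interval 31.0 to 38.8%) overlapped a site of either IgG list, and of control IP 2 36.1% (214 of 593, 32.2 to 40.1%). Of the IgG lists, 46.6% and 45.3% of sites overlapped an IP site, and 81.2% and 83.5% overlapped a site of the other IgG list. The intervals cover the counting of sites only. After sites with a false discovery rate of 100% were left out, the mean overlap of the IP lists with IgG was 3.80%, the common regions numbered 12 and the IgG-only regions 43, and the IP-only regions rose in number to 478, since that filter removes most IgG sites.

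The 3 classes differed in the size of the fold and in the quality values. IP-only regions had median folds of 225 (quartiles 40.9 to 859) in control IP 1 and 221 (55.5 to 882) in control IP 2. Common regions had median folds of 365 (183 to 918) and 773 (330 to 1492.5) in the IP lists and of 42.2 and 37.2 in the IgG lists. The common regions therefore did not sit at the bottom of the IP lists, and their median exceeded that of the IP-only regions in both. IgG-only regions had median folds of 38.4 and 33.7, close to the values the common regions had in IgG. Of the IP-only regions, 147 (40.4%) reached the common median in control IP 1 and 98 (26.9%) in control IP 2.

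**Figure D2:**
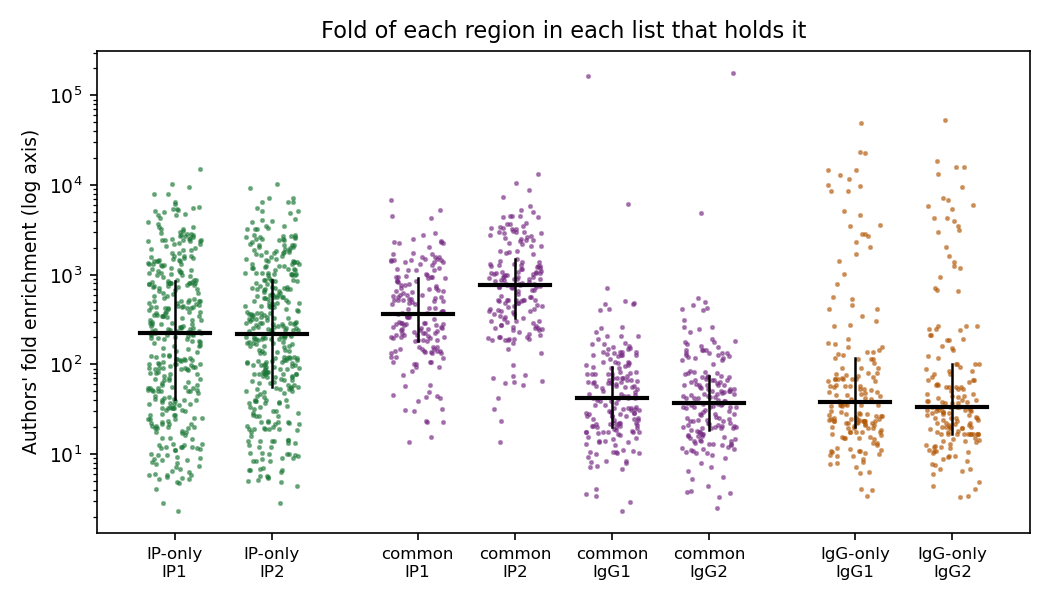
Authors' fold enrichment (vertical log axis) of every region in each list that holds it, by class, with the median as a horizontal bar and the quartiles as a vertical bar. Common regions have higher folds in the IP lists (medians 365 and 773) than in the IgG lists (42.2 and 37.2), and IgG-only regions (38.4 and 33.7) lie at the level of the latter.

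In the IP lists, common sites ranked above IP-only sites by both the score and the false discovery rate. In the IgG lists, the order of common and IgG-only sites depended on the measure. A score of 3100 or more was held by 73.6% and 74.2% of IP-only sites, by 95.5% and 96.0% of common sites in the IP lists, by 1.13% of common sites in each IgG list, and by 19.1% and 19.7% of IgG-only sites. A false discovery rate of 100% was given to 16.2% and 14.6% of IP-only sites and to 2.26% of common sites in each IP list. In the IgG lists it was given to 88.1% and 91.0% of common sites and to 76.3% and 78.6% of IgG-only sites. The median score in the IgG lists was 314 and 292 for common sites, above the 185 and 174 of IgG-only sites. The same stretches of RNA thus carried high scores in IP and low ones in IgG when they were common. IP-only sites were the narrowest (median 109.5 bp in both IP lists), common sites measured 131 bp in IP and 132 bp in IgG, and IgG-only sites 171 bp in both IgG lists. Identical edges in every list that held the region were found for 294 of 364 IP-only regions (80.8%), 92 of 177 common regions (52.0%) and 135 of 173 IgG-only regions (78.0%).

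Within the common regions the IP fold was higher than the IgG fold almost everywhere. The ratio of control IP 1 over control IgG 1 had a median of 9.78 (quartiles 7.20 to 12.3) and exceeded 1 in 172 of 177 regions. The ratio of control IP 2 over control IgG 2 had a median of 21.1 (15.9 to 25.9) and exceeded 1 in 173 of 177. Each fold is relative to the background of its own list, so these ratios describe the lists and are not a measured recovery of RNA. Lck, which encodes a lymphocyte tyrosine kinase, had the highest IP folds among the common regions, 6747 and 13402, with 473 and 549.9 in IgG. Extl1, a glycosyltransferase gene of heparan sulfate synthesis, had 5228 and 10609 in IP and 473 and 426 in IgG. Des, which encodes the muscle intermediate filament protein desmin, had 2302 and 5033 in IP and 404 in each IgG list.

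A higher fold in the IgG list than in the IP list under both numbers was found in 4 common regions. Nwd2 had folds of 39.4 and 76.6 in IP and of 164547 and 179556 in IgG, the highest folds of both IgG lists. Cpsf7, which encodes a subunit of the cleavage factor that acts before polyadenylation, had 558 and 1262 in IP and 6232 and 4891 in IgG. The keratin gene Krt10 had 23.0 and 23.3 in IP and 704 and 412 in IgG. These 3 regions and that of Optn, an autophagy receptor gene (59.0 and 13.5 against 485 and 74.2) make up the 4.

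**Figure D3:**
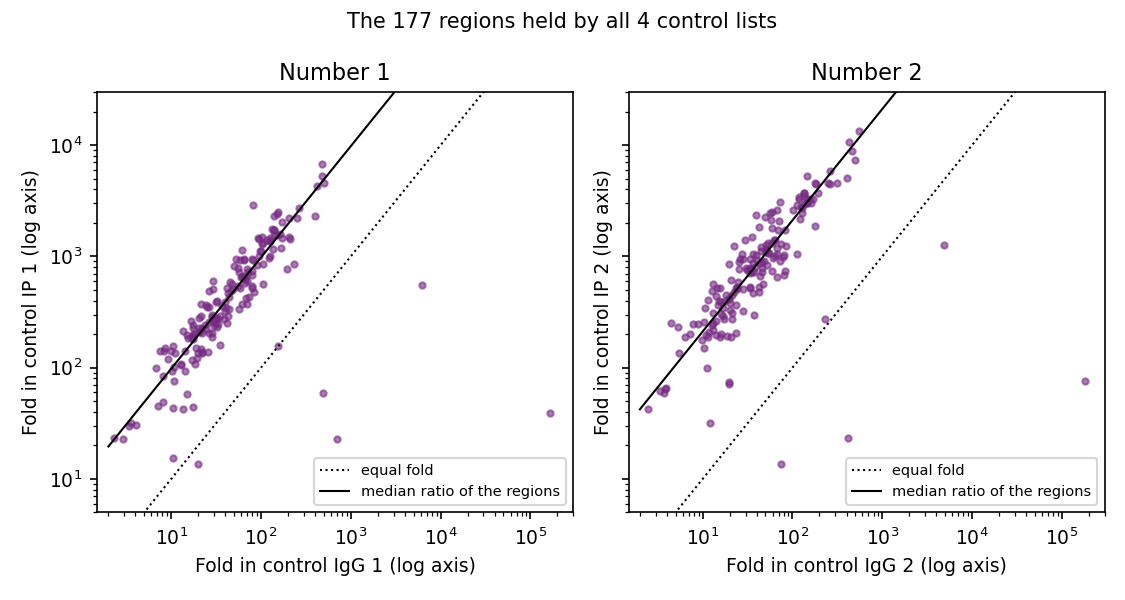
Fold in the IP list against fold in the same-numbered IgG list for the 177 common regions (both axes log), with the line of equal folds dotted and the median ratio (9.78 for number 1, 21.1 for number 2) solid. Nearly all points follow the solid line, and 5 regions in number 1 and 4 in number 2 lie below the dotted line.

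Between the replicate IP lists the median fold ratio was near 1 on IP-only regions and near 2 on common regions. The fold in control IP 2 over that in control IP 1 had a median of 1.00 on the IP-only regions (log2 0.00, quartiles −0.42 to 0.59), with 182 of 364 above 1. Single regions scattered around it, with 281 of 364 (77.2%) less than 2-fold apart and log2 ratios from −2.16 to 2.36. On the common regions the median was 2.02 (log2 1.01, quartiles 0.52 to 1.41), with 160 of 177 above 1 and 83 (46.9%) less than 2-fold apart. Control IgG 2 over control IgG 1 had a median of 0.958 on the same common regions and of 0.862 on the IgG-only regions. The shift was therefore seen in the IP lists on the common regions and not in the IgG lists, and it has no replicate, since it compares 1 list with 1 list. Spearman correlations between replicates, across regions that share their libraries and are not independent, were 0.96 for IP-only regions, 0.87 for common regions in IP, 0.82 for common regions in IgG and 0.88 for IgG-only regions.

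**Figure D4:**
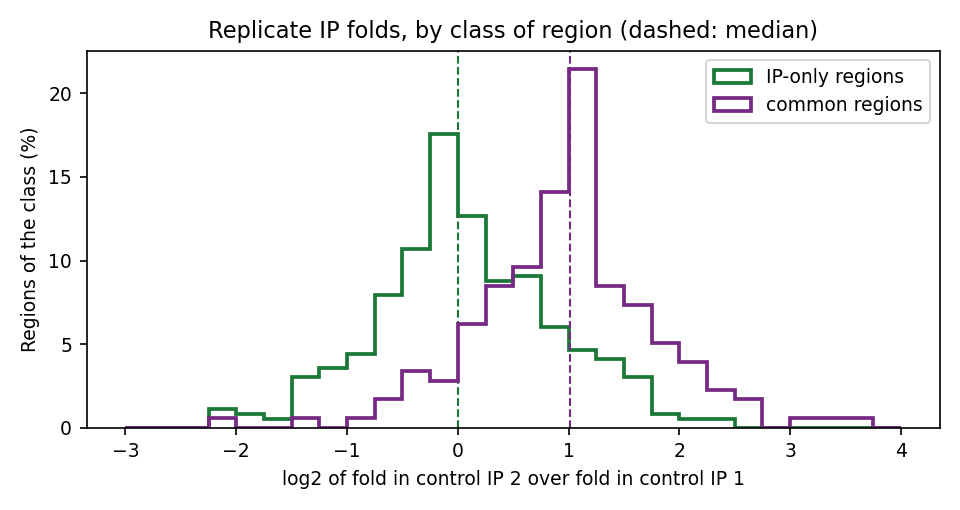
Distribution of the log2 ratio of folds, control IP 2 over control IP 1, in percent of the regions of each class, with dashed medians. The IP-only regions centre on 0.00 and the common regions on 1.01.

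The IP-only class led with genes of varied function. Rnf165, a ring finger gene, had folds of 15084 in control IP 1 and 10205 in control IP 2, and Ern1, the endoplasmic reticulum stress sensor IRE1, 9562 and 9347. Fbxl18, an F-box gene of ubiquitin ligase complexes, had 10207 and 5208, Nup160, a nuclear pore scaffold gene, 5765 and 5085, and Wdr72, a WD repeat gene, 4667 and 4118. Between the replicates the folds of each of these 5 regions lay within a factor of 2. Of the 274 genes, 189 had 1 region, 81 had 2 and 4 had 3 or more (Akap8l, Ccnl2, Col9a1 and Evc).

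Some regions of a gene had nearly the same fold. In Evc, a gene of the primary cilium in which hedgehog signals are received, a region of 190 bp had folds of 8052 and 7267 and another of 40 bp in the same gene had 8003 and 7230, while the third had 55.8 and 86.6. In Ptpn21, a tyrosine phosphatase gene named after its values were seen, the regions were less alike. They had 3267 and 2803 in one and 3031 and 2593 in the other, more than 1% apart. Over the lists, the folds of neighbouring sites of a gene were within 1% of each other in 12 of 163 pairs in control IP 1, 11 of 160 in control IP 2, 7 of 115 in control IgG 1 and 4 of 112 in control IgG 2. Since a gene could hold several regions, genes are counted below.

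The leading IgG-only regions were in genes of membrane traffic and of the nucleus, among others. Vmp1, which encodes a membrane protein of autophagosome formation, had 49504 in control IgG 1 and 52905 in control IgG 2. Trappc10, a vesicle tethering gene, had 22843 and 15775, Nrip1, a nuclear receptor corepressor gene, 14649 and 13239, and Naa50, an N-terminal acetyltransferase gene, 4697 and 15740. Such regions were few, since 19.1% and 19.7% of the class carried a score of 3100 or more. Genes with 3 or more IgG-only regions were Ahnak, Col1a1, Col3a1 and Trappc10, and genes with 3 common regions included Gucy2f and Rarg, a retinoic acid receptor gene with IP folds of 718 and 869 and IgG folds of 57.2 and 43.4 at its highest region.

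Few genes crossed the classes, which a gene with 1 region cannot do. Of the genes of a class, 189 of 274 (IP-only), 100 of 137 (common) and 96 of 129 (IgG-only) had 1 region of that class. The low number is therefore in part set by the number of regions per gene. IP-only and common regions met in 10 genes, 3.65% of the IP-only and 7.30% of the common genes. Axin2, a feedback inhibitor of Wnt signalling, had an IP-only region (217 and 134) and, further along the same gene, a common region (151 and 342 in IP, 8.44 and 16.9 in IgG). Dsp, the desmosomal plaque gene, had IP-only regions of up to 1268 and 1057 and a common region of 42.6 and 70.9 in IP and 13.5 and 19.7 in IgG. IP-only and IgG-only regions met in 3 genes, 1.09% and 2.33% of the respective genes. In Mta2, a subunit gene of the NuRD chromatin remodeller, one IP-only region had 716 and 697, the other 739 and 284, and the IgG-only region 20.1 and 10.9. In Zcchc8, a subunit gene of the nuclear exosome targeting complex, the values were 1428 and 1000 against 17.6 and 14.8. In Fau, which encodes a ribosomal protein fused to a ubiquitin-like protein, the order was turned, with 5.84 and 19.3 in IP against 458 and 682 in IgG. Common and IgG-only regions met in Nfe2l1, Ptgds and Usp7. Counted by gene and whatever the position, 253 genes had sites in both IP lists and neither IgG list, 142 in all 4 and 123 in both IgG lists and neither IP list.

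Genes of RNA processing were read first, since RBM25 acts there. Groups were formed by words searched in the ontology and pathway columns of the deposited lists or by symbol, and a gene could stand in several groups and classes. Of 43 genes of splicing and mRNA processing, 19 had an IP-only region (44.2%), 13 a common one (30.2%) and 9 an IgG-only one (20.9%), against 42.2%, 21.1% and 19.9% of all genes. The IP-only share was thus close to that of all genes. Members with an IP-only region included Cwc15, a component of the spliceosome (1907 and 1784), Clk2, a kinase of SR proteins (1547 and 1019), Cstf2, a cleavage stimulation factor gene (1043 and 1478), and Zcchc8. Members with a common region included Scaf11 (1118 and 3080 in IP, 99.7 and 73.3 in IgG), Isy1 (937 and 2955, 64.5 and 133), Sf3b3, a subunit gene of the U2 particle (925 and 2117, 82.1 and 58.4), and Ddx23, an RNA helicase gene of the U5 particle (651 and 671, 67.4 and 43.1).

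The narrower Spliceosome pathway of the files counted 15 genes, of which 3 were IP-only (20%), 7 common and 3 IgG-only. The common class rests on IgG sites, of which 88.1% and 91.0% had a false discovery rate of 100% in the 2 IgG lists. With such sites left out of every list, 12 common regions remained, and the group shares were not counted again. Beside the genes named above, the 7 common genes included Rbm22 (1016 and 1044 in IP, 96.2 and 27.6 in IgG) and Srsf7. This pathway was singled out after its values were seen. The IgG-only genes were Srsf2 and the heat shock protein genes Hspa1a and Hspa1b, which are near-identical copies, so it is uncertain to which of them a site belongs. The 3 SR protein genes with a site fell into 3 classes, Srsf5 IP-only, Srsf7 common and Srsf2, with 2 regions, IgG-only (up to 65.95 and 40.1).

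Of the known partners of RBM25, listed together with its target Bcl2l1, none had an IP-only region, against 42.2% of all genes with a site. Few of them had any site, so this is not read as a difference from all genes. Snrnp70, the U1-70K protein gene, was common (76.4 and 149 in IP, 10.7 and 10.2 in IgG), as was Acin1, which encodes a protein of the exon junction (324 and 397, 39.6 and 17.5). Luc7l2, a gene for a U1-associated protein, was IgG-only (10.9 and 7.78), as was Srsf2, another listed partner, described above. Rbm25 itself, Snrpa, Snrpc, Luc7l, Luc7l3, Srrm1 and Bcl2l1 had no site in the 4 lists. A missing site says only that none is listed, since the lists hold part of the called peaks, with peak numbers running to 1587 and 1563 in IP and to 803 and 797 in IgG, and since depth is unknown.

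RNA binding in general had 45 of 95 genes IP-only (47.4%), 28 common (29.5%) and 13 IgG-only (13.7%). Ribosome and translation genes had 21 of 36 IP-only (58.3%), 8 common (22.2%) and 3 IgG-only (8.33%). The single terms had lower IP-only shares, 9 of 17 genes for translation (52.9%) and 5 of 10 for the Ribosome pathway (50%). The IP-only members with the highest folds were Eif2d, a noncanonical initiation factor gene (2468 and 2160), Vars2, the mitochondrial valine tRNA synthetase gene (1872 and 2538), Eif4ebp1, the repressor of cap-dependent initiation (2004 and 1400), and Nsa2, a gene of ribosome assembly (5256 and 1174). By symbol, 9 names were taken as cytosolic ribosomal protein genes, the pseudogene Rps2-ps10 among them. Of these, 4 were IP-only, 2 common and 0 IgG-only, with IP-only folds from 94.6 and 238 in Rpl37a to 11.9 and 10.0 in Rpl23a. Fau, left out by its symbol, had an IP-only region (5.84 and 19.3) and an IgG-only one (458 and 682). These genes have processed copies elsewhere in the genome, so it is uncertain whether each site belongs to the gene named.

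Cell cycle genes were the group with 10 or more genes in which the IP-only share was highest. Of 55 genes of cell cycle and division, 34 had an IP-only region (61.8%), 5 a common one (9.09%) and 7 an IgG-only one (12.7%). The IP-only members led with Ern1, with Mad1l1, a spindle assembly checkpoint gene (3848 and 3273), with Kif2c, a kinesin gene that depolymerises microtubules at centromeres (2198 and 2124), and with Pcnt, the pericentrin gene of the centrosome (3700 and 1780). Common members included Mis12, a kinetochore gene (653 and 947 in IP, 61.6 and 33.7 in IgG), and Numa1, a spindle pole gene (136 and 243, 11.1 and 12.6). IgG-only members included Naa50 and the histone chaperone gene Nasp (49.8 and 37.9).

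The files' own Cell cycle pathway, singled out after its values were seen, counted 14 genes, of which 10 were IP-only and 0 were common or IgG-only. They included Mad1l1, the stress-response gene Gadd45b (2378 and 1188), Mcm4 (341 and 647) and Mcm7 (382 and 274), subunit genes of the replicative helicase, Ep300, a histone acetyltransferase gene (195 and 144), Skp2, an F-box gene that targets cell cycle inhibitors (36.7 and 53.3), and Ccnb2, cyclin B2 (30.0 and 33.3). The IP-only regions of Skp2 and Ccnb2 all carried a false discovery rate of 100% in both IP lists. Among 173 terms with 10 or more genes the IP-only share ranged from 8.33% to 80.0% with a median of 45.2%, so a share of 71.4% lay near the top of that range. The cGMP-PKG signaling pathway held the top of the range with 8 of 10 genes, among them the phospholipase gene Plcb3 (799 and 1020) and the calcium channel gene Itpr1 (818 and 380). No enrichment test was made.

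DNA replication and repair genes had 15 of 25 IP-only (60%), 3 common and 5 IgG-only. The IP-only members included Ctc1, a telomere maintenance gene (1622 and 721), Supt16, a subunit gene of the FACT histone chaperone (504 and 484), and Tlk1, a kinase gene of chromatin assembly (437 and 371). Polb, the DNA polymerase beta gene of base excision repair, was IgG-only with 2 regions (up to 13117 and 4265). Cilium and centrosome genes had 20 of 35 IP-only (57.1%), 6 common (17.1%) and 4 IgG-only (11.4%). Evc, Ift172, an intraflagellar transport gene (4778 and 3976), and Cul7, a cullin gene (821 and 1483), were IP-only, while Poc1b, a centriole gene (1750 and 4577 in IP, 132 and 180 in IgG), and Kiz, a centrosome stabilising gene (1007 and 1864, 127 and 180), were common.

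Among groups of 10 or more genes, the IgG-only share exceeded the IP-only share in extracellular matrix, ear and hearing, and histone genes. Of 39 extracellular matrix genes, 13 were IP-only (33.3%), 8 common (20.5%) and 15 IgG-only (38.5%). The IgG-only members included Col27a1, a fibrillar collagen gene (2325 and 1259), Ccdc80, a secreted matrix gene (561 and 1198), Col1a1 (277 and 269) and Otog, the otogelin gene of the tectorial and otolithic membranes (351 and 212). The IP-only members included Anxa2, a phospholipid-binding annexin gene (314 and 267), and Tgfbi, a secreted adhesion protein gene (52.5 and 78.6).

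The 9 collagen genes fell into different classes. Col1a1, Col1a2, Col3a1, Col5a1 and Col27a1 had IgG-only regions. Col9a1, Col9a2 and Col11a2, which encode chains of collagens found in cartilage and the tectorial membrane, had IP-only ones. Of the 4 regions of Col11a2, 1 was IP-only, 1 was common and 2 had irregular combinations. Col9a1 had 4 IP-only regions with folds of 2.88 to 74.8 in the IP lists, and Col9a3, its partner chain, had 2 common regions (up to 134 and 272 in IP and 21.98 and 21.1 in IgG). Col1a1 had 14 regions in all, 6 of them IgG-only. Its sites in the IP lists, each fold being relative to its own list, had a fold of 20 in control IP 1, and of 37.1 and 14.2 in control IP 2 on regions that had 193 and 272 in control IgG 1 and 299 and 143 in control IgG 2. Col3a1 had 9 regions, 6 of them IgG-only and 3 in control IgG 1 alone.

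Of 17 mesenchymal markers, which include 3 of these collagen genes, 6 had a site. Col1a1, Col1a2, Col3a1 and Fn1, the fibronectin gene (21.1 and 39.3), had IgG-only regions, Twist1 was in control IgG 1 alone, and Sparc was IP-only at folds of 2.34 and 5.19. Pdgfra, Pdgfrb, Prrx1 and Vim were among the markers without a site. Of 6 epithelial markers, Epcam had 2 common regions (up to 94.0 and 190 in IP, 14.1 and 15.5 in IgG) and Krt18 a region in both IP lists and control IgG 2. Hair cells had 1 of 17 markers, Barhl1 (158 and 269, IgG-only), and supporting cells 1 of 22, Otog. Glia, neuron, immune cell, endothelium and melanocyte markers had no site. Summed levels of RNA are not in the lists, so the cell makeup of the organoids and its part in the collagen pattern were not tested.

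Terms of the cytoskeleton, chosen after their values were seen, went both ways. The cytoskeleton term itself had 23 of 47 genes IP-only (48.9%), 15 common (31.9%) and 3 IgG-only (6.38%). The microtubule term had 7 of 10 genes IP-only, 0 common and 1 IgG-only. Of 12 genes annotated to structural molecule activity, by contrast, 1 was IP-only (Dsp), 3 were common and 6 IgG-only, among them the keratin genes Krt1 (173 and 213), Krt15 (115 and 89.8) and Krt5 (80.8 and 101), the nestin gene Nes (45.2 and 47.2) and the lamin A gene Lmna (52.8 and 32.7). The basement membrane term had 3 of 12 genes IP-only, 0 common and 6 IgG-only. Endocytosis genes had 2 of 13 IP-only, 1 common and 7 IgG-only, with the ubiquitin ligase gene Itch (8500 and 7117) and the actin capping gene Capza2 (796 and 664) in the IgG-only class. Cell adhesion and junction genes stood nearer to the background, with 27 of 84 IP-only (32.1%), 21 common (25.0%) and 21 IgG-only (25.0%).

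The shares of chromatin, transcription, ubiquitin, apoptosis and mitochondrial genes lay within 10 percentage points of those over all genes. Chromatin genes had 34 of 84 IP-only (40.5%), 13 common (15.5%) and 19 IgG-only (22.6%), and transcription genes 46 of 115 (40.0%), 26 (22.6%) and 20 (17.4%). Ubiquitin genes had 22 of 44 IP-only (50.0%), led by Rnf165 and Kdm2b, an F-box histone demethylase gene (6159 and 2005). Apoptosis genes had 27 of 55 IP-only (49.1%) and 15 common (27.3%), the latter with Bax, a gene of the mitochondrial death pathway (292 and 1245 in IP, 35.2 and 84.3 in IgG). Mitochondrial genes had 28 of 65 IP-only (43.1%) and 18 IgG-only (27.7%), with Ogdhl, an oxoglutarate dehydrogenase gene (5210 and 6441), in the first class and Cpt1c, a carnitine palmitoyltransferase gene (3465 and 6033), in the second. Of 10 histone genes, which have near-identical copies to which their sites could equally belong, 3 were IP-only, namely the linker histone genes Hist1h1b (176 and 285) and Hist1h1d (43.3 and 64.2) and the core histone gene Hist1h4d (2.85 and 8.94), and 4 genes of core histone H2A were IgG-only with folds of 3.31 to 10.7. The linker histone gene Hist1h1e was common, and the H2A genes Hist1h2ad and Hist1h2ai had irregular combinations. Hist1h4d had a false discovery rate of 100% in both IP lists.

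**Figure D5:**
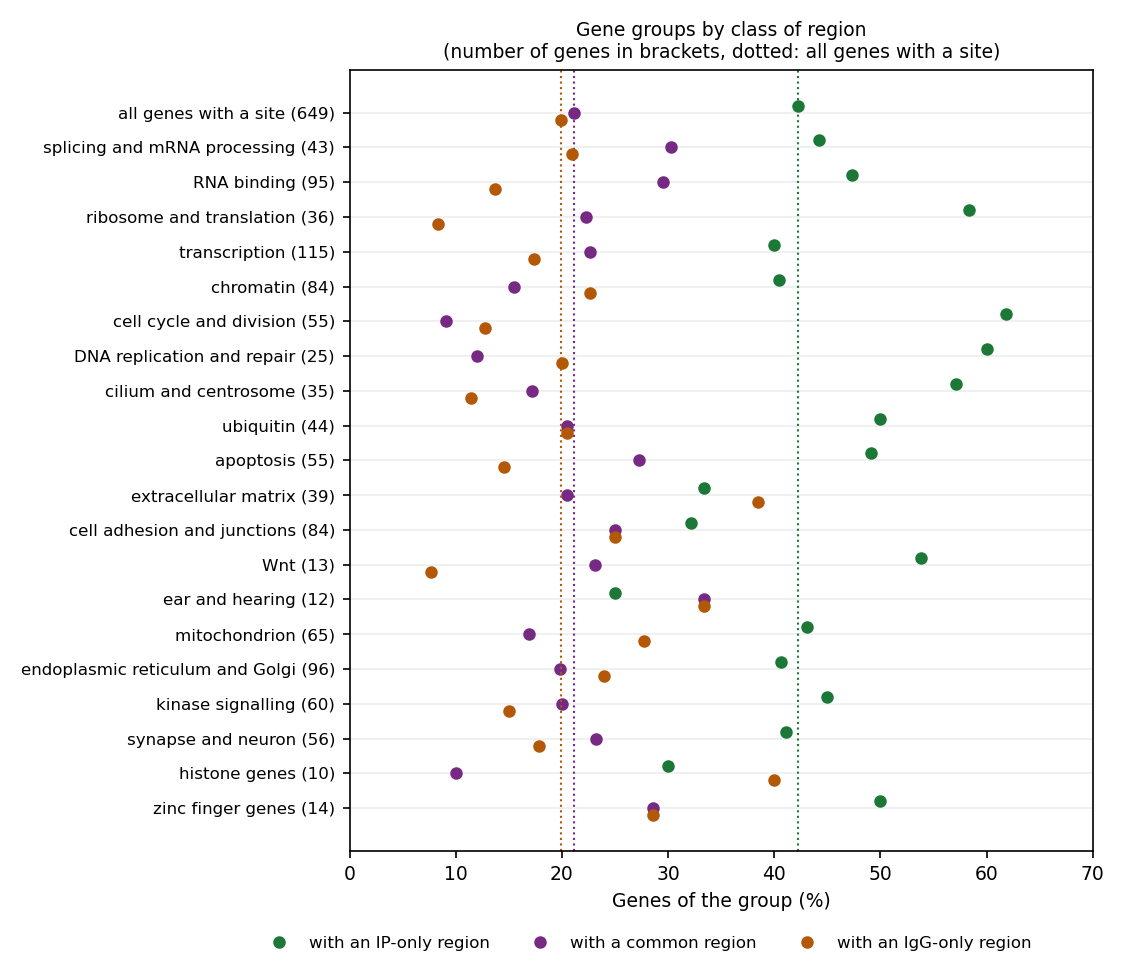
Percent of the genes of each group (horizontal axis) with an IP-only, common or IgG-only region, for groups of 10 or more genes, with dotted lines at the shares over all 649 genes (42.2%, 21.1% and 19.9%). Cell cycle genes lie furthest to the right for IP-only regions (61.8%), and extracellular matrix (38.5%) and histone genes (40.0%) for IgG-only regions.

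Pathways that the culture medium acts on had few members. Of 13 Wnt genes, 7 were IP-only, 3 common and 1 IgG-only, with Tbl1x, a corepressor subunit gene that works with beta-catenin (267 and 217), and Ankrd6 (129 and 194) in the first class and the receptor gene Fzd1 (420 and 1710 in IP, 67.5 and 69.3 in IgG) in the second. Of 6 Notch genes, 2 were IP-only, 1 common and 1 IgG-only, the last being Dlk1, a non-canonical Notch ligand gene (80.8 and 44.9). Of 12 ear and hearing genes, 3 were IP-only, 4 common and 4 IgG-only, with Wdr1, an actin disassembly gene, in the common class (225 and 610 in IP, 17.5 and 20.5 in IgG). Each of these counts rests on few genes.

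The regions of a class were spread over the chromosomes. IP-only shares were highest on chromosomes 12 and 14, with 16 of 26 regions each (61.5%), and on chromosome 9, with 28 of 46 (60.9%), against 39.8% in all. IgG-only regions had their highest share on chromosome 8 (15 of 41, 36.6%). Several regions of a gene count separately here.

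A region of the imprinted non-coding RNA H19, at chr7:142576245-142577269, was in control IP 2 (27.9) and both IgG lists (58.6 and 86.4) and not in control IP 1. It is given because it was the region of the 4 lists that holds an annotated microRNA, Mir675, whose mature forms are printed from the RefSeq table with the seed, bases 2 to 8, in capitals.
mmu-miR-675-5p: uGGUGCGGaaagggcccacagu
mmu-miR-675-3p: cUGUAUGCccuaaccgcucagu
The second region of H19 was IgG-only (35.2 and 94.8), so H19 had sites in both IgG lists. Each fold is relative to its own list, so the folds in IgG and in control IP 2 do not compare recovery.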

How the data were processed

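RNA immunoprecipitation was sequenced from mouse inner ear organoids. Per the submitters' processing notes, reads were trimmed with cutadapt 1.9.3 and aligned with HISAT2 2.0.4, and the notes name build mm8. Peak names in the lists begin with MACS_peak. The caller's version and background library are not stated. Of 2032 sites whose gene could be looked up, 1984 lay inside that gene in the GRCm38.p6 table, so the coordinates were read on GRCm38. They are printed counting from 1.

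Per the file headers, the deposited lists give a score of minus 10 times the log10 of p, a fold enrichment (a ratio over the caller's background) and a false discovery rate in percent. No counts were used, so sequencing depth is unknown and no count test could be run. The lists labelled Input were not used, because they are filtered IP lists, nor were the lists of depleted organoids, 8 lists in all.

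Sites sharing 1 bp were merged with Python 3.11.15 and pandas 2.3.3, after a test on simulated sites. Intervals and permutation tests (2 lists against 2, smallest two-sided p 0.333) used scipy 1.17.1. Positions along a gene were taken for genes with a strand (511 of 649). The members, gene groups and tests were chosen with earlier results of these data known. Named genes were those with 3 or more regions of a class, the 12 regions per class with the highest lower fold, up to 5 members per class of a group by lower fold, genes of opposite classes, cell type markers with a site and known partners of RBM25. Others were named after their values were seen, and 24 predicted gene names were only counted. Some genes that the rule names are not reported here. Biological process terms of 73 genes were not analysed here. Alternatives were other overlap, score, fold, width and false discovery filters, genes in place of regions, each list left out in turn, and same-numbered lists as pairs.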

Additional observations from a re-analysis of the deposited data

How the results depend on the processing

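Of the alternatives run, 65 values were kept, 13 moved and 2 reversed. Kept meant the same direction for differences between lists and within 1.5 times for counts of regions. For the overlap of IP with IgG, it meant closer to the main value than the SD between the IP lists. With sites whose fold was below their list's median left out, IP-only regions numbered 157, common regions 78 and IgG-only regions 90. With sites of 100 bp or more, IP-only regions numbered 199 and common regions 105. With a false discovery rate under 100%, common regions numbered 12, IgG-only regions 43 and the overlap of IP with IgG was 3.80%, while the difference in median score was 0 and IP-only regions numbered 478, as IgG sites dropped out. The fold and width filters leave fewer sites by construction. The overlap was 33.4% with scores of 100 or more. Leaving out each list in turn gave 373 to 387 IP-only regions, 178 to 197 common, 174 to 236 IgG-only and an overlap of 32.1% to 36.1%. The same gave an IP minus IgG difference of 151.5 to 163.5 sites, −46 to −43 bp in width, 2907 to 2913 in score, −1647 to −875 bp in gene length and −1.63 to 0.11 percentage points in position. With a list left out, the region counts could only rise by construction, since fewer lists had to hold or lack a region. Those counts therefore do not test stability, though they are among the 65. Differences that kept their direction but changed in size were, with a false discovery rate under 100%, 449 sites, −71.8 bp in width, −13.6 points in position and −13199 bp in gene length, with scores of 100 or more 240 sites, −19.5 bp in width and −5069 bp in gene length, and with sites of 100 bp or more −12 bp in width. The position difference (−0.76) was thus 0.11 without control IgG 2, and 1.30 with sites of 100 bp or more. The cause was not tested.

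With the replicate number as a block, 364 IP-only, 177 common and 173 IgG-only regions were counted, unchanged by construction, the overlap was 33.0%, and the differences between lists had an exact permutation p of 0.5, or 1 for position. Over the 177 common regions, the deviation of control IP 1 from control IP 2 correlated with that of control IgG 1 from control IgG 2 (Pearson 0.834, Spearman 0.772, log2 folds), with only 2 pairs and no label that says what the number marks. The block changed no other call. Sequencing depth is unknown, so a site missing from a list cannot be told from one below detection.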
